A study of Apis mellifera with 3 samples.

Results

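The alpha-glucosidases and alpha-amylase of the honeybee were followed in 3 RNA sequencing libraries. Members were the transcript sequences whose best protein match contains alpha-glucosidase, alpha glucosidase, maltase or alpha-amylase. This text rule found 13 of the 21441 sequences read in the series, and they match 9 protein entries. The rule reads names only, though it was written with earlier results of these data known. Of the 13 sequences, 4 match Hbg3, 2 match alpha-amylase entries, 3 match lysosomal alpha-glucosidase entries, and 1 each matches AGLU2 (also called Hbg1), Hbg2, maltase 1 and neutral alpha-glucosidase AB.

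The libraries came from pools labelled winter bee, spring bee and retired bee. All were full sisters of the strain Apis mellifera carnica Pollmann, the offspring of inseminated queens. The labels put the winter pool at day 3 after emergence, the spring pool at day 6 and the retired pool at day 9, so season, task and labelled age differ together and cannot be told apart. A pool of 30 bees stood behind each library. With 1 library per group, no value has a replicate and no test across samples could be made. Intervals below are 95% intervals for counting error only. They compare libraries rather than conditions, and PCR copies of 1 fragment count as separate reads, so they can be too narrow.

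The labels name the hypopharyngeal gland, the head gland that makes royal jelly in nurses and honey enzymes in older bees, while the design text speaks of pooled heads. Winter bees gave 3.85 M uniquely mapped reads, spring bees 3.29 M and retired bees 3.18 M. The gland's royal jelly proteins took 7.002% of the winter, 21.1% of the spring and 18.1% of the retired reads. Genes of nerve cells were read too, with all 19 neuron marker sequences present in every library. Their summed level in RPKM (reads per kilobase of sequence, scaled to the uniquely mapped reads of the library) was 1211 in winter bees, 1028 in spring bees and 1064 in retired bees. This order depends on the scaling. With royal jelly reads left out of the library totals, the sums were 1303, 1303 and 1299 in the same order.

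Alpha-glucosidases cut terminal glucose units from sugars. In honeybees Hbg3 is the form known from the hypopharyngeal gland, where it is added to nectar and splits sucrose into glucose and fructose. Hbg1 and Hbg2 are known mainly from the midgut, and Hbg2 also from the blood. Alpha-amylase cuts starch inside the chain and is the diastase of honey. Neutral alpha-glucosidase AB works in the endoplasmic reticulum, where it trims glucose from the glycans of new secretory proteins, and the lysosomal form breaks down glycogen in animals in which it has been studied. The secreted enzymes, the reticulum form and the lysosomal form are therefore kept apart.

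All members together took 1.99% of the winter reads (exact binomial interval 1.98 to 2.003%), 0.279% of the spring reads (0.273 to 0.284%) and 3.85% of the retired reads (3.83 to 3.87%). Hbg3 alone held 91.4% of the member reads of winter bees, 81.7% of those of spring bees and 93.4% of those of retired bees. Alpha-amylase held 6.61%, 1.72% and 5.32% of them in the same order. Neutral alpha-glucosidase AB, which held 0.897% of the member reads in winter and 0.567% in the retired library, made up 10.3% of the few member reads of the spring library. The shares of the reticulum form were 0.0179%, 0.0287% and 0.0218% of all reads in winter, spring and retired bees, and those of the lysosomal form 0.00439%, 0.00365% and 0.00308%. In bulk RNA, fewer cells of a type and less RNA per cell cannot be told apart.

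**Figure D1:**
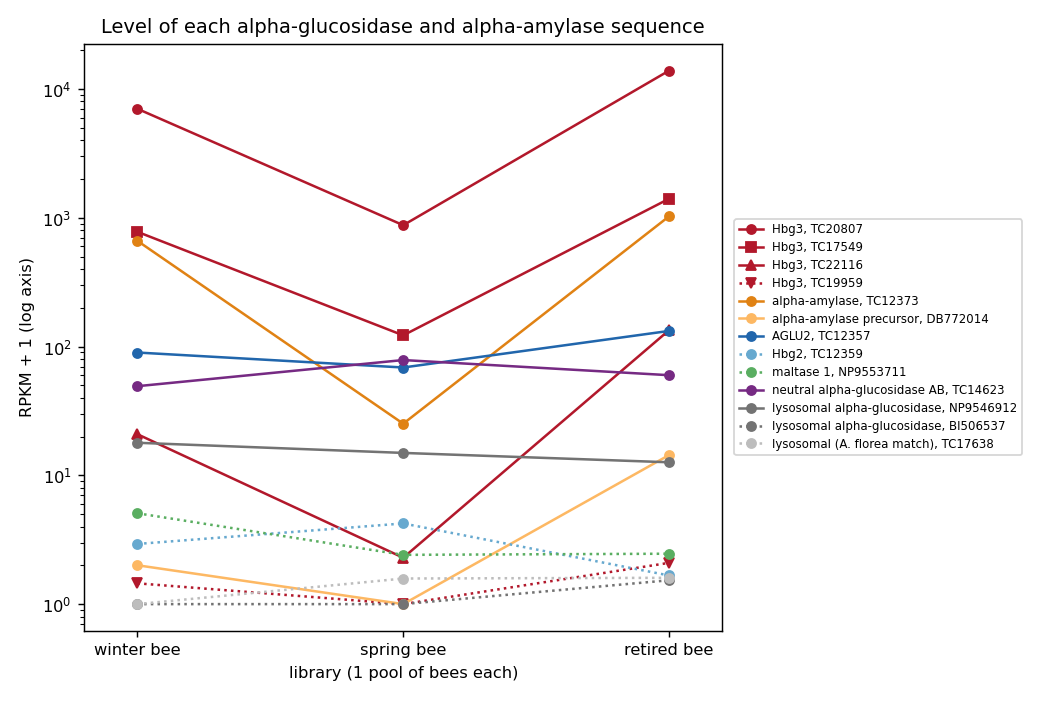
Level of each of the 13 sequences in the 3 libraries, as RPKM + 1 on a log axis, with 1 library per point. Solid lines are the 8 sequences with at least 10 RPKM in a library and dotted lines the other 5. The 3 best-read Hbg3 sequences and both alpha-amylase sequences are lowest in the spring library, and neutral alpha-glucosidase AB is highest there.

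Of the 13 sequences, 8 reached 10 RPKM in at least 1 library. A member was called different when (RPKM + 1) differed at least 2-fold between the libraries compared and 1 of them reached 10 RPKM. In spring over winter, 4 of the 7 members that reached the minimum were lower, against 4.76% of the 12038 sequences of the whole table, and 0 were higher, against 2.14%. In retired over spring, 5 of 8 were higher, against 1.81% of 11413 sequences, and 0 were lower, against 1.96%. In retired over winter, 2 of 8 were higher, against 1.31% of 11955 sequences, and 0 were lower, against 5.43%. The Hbg3 sequences TC20807, TC17549 and TC22116 and the alpha-amylase sequence TC12373 make up the 4 in spring over winter. The amylase sequence DB772014 is the additional one in retired over spring. The 3 Hbg3 sequences share 1 protein match, and the orthology entries of both amylase sequences name the same gene. The counts are therefore of sequences that are not independent of each other, and not of proteins. In comparisons with the spring library TC22116 passed the minimum only through the other library, in which it was high, and DB772014 did so only through the retired library, so these calls add no support. The 2 in retired over winter are TC22116, which reached the minimum in both libraries, and DB772014. There too DB772014 passed the minimum only through the retired library, at 13.4 RPKM against 1.00 RPKM in winter bees, so that call adds no support.

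Hbg3 was the leading member in every library. Its main sequence, TC20807, stood at 7019 RPKM in winter bees, 875 RPKM in spring bees and 13882 RPKM in retired bees, on 68385, 7282 and 111674 reads. By read number it ranked 4 among all sequences of the winter library, 30 in the spring library and 3 in the retired library. Summed over its 4 sequences, Hbg3 took 0.228% of the spring reads and 1.82% of the winter reads, a share 7.98-fold lower in spring (exact interval 7.79 to 8.18). The retired library gave it 3.59% of reads, 15.8-fold more than the spring library (15.4 to 16.2). The retired share was also 1.98-fold that of winter (1.96 to 1.995), just under the 2-fold mark. Its log2 ratio of 0.98 in retired over winter became 1.28 once libraries were rescaled so that the median ratio was 1, and 1.17 with royal jelly reads left out of the totals. TC20807 and TC17549 then passed 2-fold, and 4 members in place of 2 were higher.

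The smaller Hbg3 sequences did not all keep the proportions of TC20807. TC17549, 507 bases long, stood at 777 RPKM in winter, 121 in spring and 1404 in retired bees. Its share was 6.41-fold lower in spring than in winter (5.53 to 7.46) and 11.6-fold higher in retired than in spring (10.03 to 13.4), both somewhat less than for TC20807 at 8.02-fold (7.83 to 8.22) and 15.9-fold (15.5 to 16.3). TC22116, 471 bases long, had 36 reads in winter bees, 2 in spring bees and 199 in retired bees. It was 6.70-fold higher in retired than in winter (4.68 to 9.83), above the 1.98-fold of TC20807 (1.96 to 1.997), with intervals that do not overlap. In retired bees reads covered 0.348 of the length of TC22116 and 0.803 of that of TC20807. Whether TC17549 and TC22116 are pieces of Hbg3 or of a close relative is not settled by the match, since the first orthology hit of both differs from that of TC20807. TC19959 had at most 2 reads in a library.

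Alpha-amylase was lower still in spring, relative to both other libraries, than Hbg3. TC12373 stood at 661 RPKM in winter bees, 24.2 RPKM in spring bees and 1025 RPKM in retired bees, on 5056, 158 and 6475 reads. Its spring share was 27.3-fold lower than in winter (23.3 to 32.2), and its retired share was 42.4-fold higher than in spring (36.2 to 49.98). On the log2 (RPKM + 1) scale, only 2 sequences of the whole table, itself included, were at or below its -4.72 in spring over winter. Likewise 2 were at or above its 5.35 in retired over spring. The others were BI514159, without a protein match, on 1 spring read, and the member TC22116, on 2 spring reads. These ranks depend on the pseudocount of 1 RPKM. By read shares, TC22116 was 103-fold higher in retired than in spring, and TC14476, on 4 spring reads, 68.6-fold. The retired share of TC12373 exceeded its winter share 1.55-fold (1.49 to 1.61). Reads covered 0.927 of the sequence in winter, 0.857 in spring and 0.926 in retired bees.

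The other amylase sequence, DB772014, matches the alpha-amylase precursor encoded by LOC406114, the gene that the orthology entry of TC12373 also names. It had 2 reads in winter bees, 0 in spring bees and 22 in retired bees. With the spring count of 0 set to a floor of 3 reads, or 1.76 RPKM, the retired share was 7.59-fold higher than the spring share. On the counts as read, with 0 spring reads, the exact interval of retired over spring starts at 5.67 and has no upper end. It also covers the counting error of the retired reads, and it is not an interval of the 7.59-fold. In retired over winter the ratio was 13.3 on these few reads (3.28 to 117), above the 1.55 of TC12373. Joining both entries left amylase at 42.6-fold higher in retired than in spring (36.3 to 50.1).

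AGLU2, or Hbg1, lies next to Hbg3 in the gene table of assembly Amel_HAv3.1, with 0 genes between them, and had a much flatter course. TC12357 stood at 88.9 RPKM in winter bees, 67.8 RPKM in spring bees and 131 RPKM in retired bees. The spring share was 1.31-fold lower than that of winter (1.16 to 1.48), but under both rescalings the interval of this ratio included 1, at 0.806 to 1.03 with the median ratio set to 1. The retired share was 1.94-fold higher than that of spring (1.72 to 2.18) and 1.48-fold higher than that of winter (1.33 to 1.64). No step reached 2-fold on the log2 (RPKM + 1) scale.

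Hbg2 and maltase 1 were read little and stayed under 10 RPKM in every library. Hbg2 had 14 reads in winter, 20 in spring and 4 in retired bees, with a retired share 4.83-fold lower than that of spring (1.62 to 19.4). Its intervals in spring over winter (0.803 to 3.58) and in retired over winter (0.0829 to 1.10) included 1. Maltase 1 had 27, 8 and 8 reads in the same order. It was 2.88-fold lower in spring than in winter (1.27 to 7.34) and 2.79-fold lower in retired than in winter (1.23 to 7.10), while its ratio of retired over spring was 1.03 (0.339 to 3.16). Neither had the high retired level of Hbg3 and alpha-amylase.

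**Figure D2:**
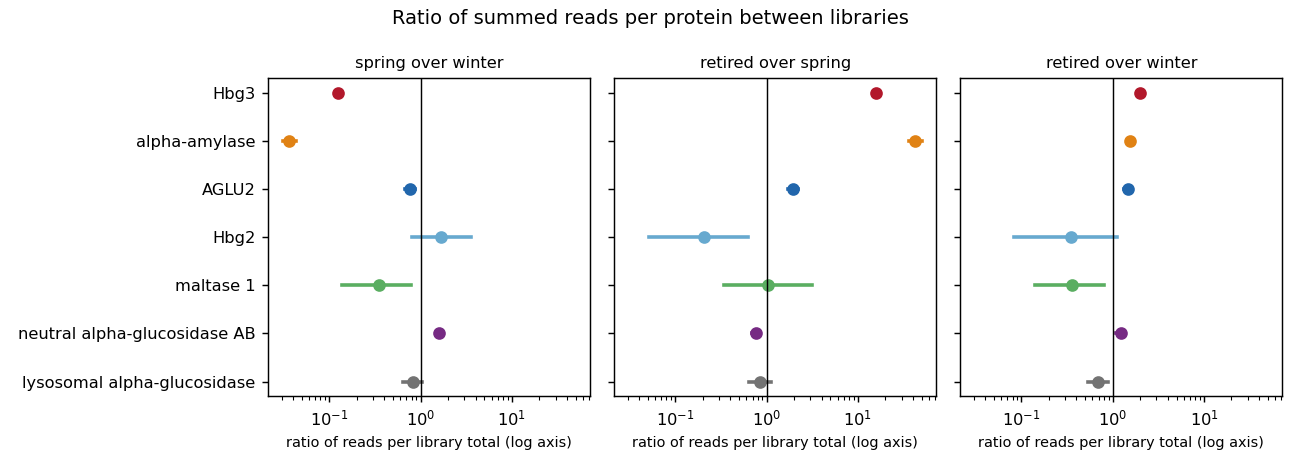
Ratio of reads per library total between libraries for 7 proteins, on a log axis, with reads summed over the sequences of each protein. Bars are exact 95% intervals for counting error, with 1 library per group. Hbg3 at 0.125 and alpha-amylase at 0.0366 lie far left of 1 in spring over winter and far right, at 15.8 and 42.4, in retired over spring, while neutral alpha-glucosidase AB lies on the other side of 1 in both.

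Ratios of reads between proteins inside 1 library do not depend on how libraries are scaled. Hbg3 had 13.8 reads for each alpha-amylase read in the winter library (13.4 to 14.2), 47.4 in the spring library (40.5 to 55.8) and 17.6 in the retired library (17.2 to 18.1). The pair thus did not hold 1 proportion, and amylase was scarcest relative to Hbg3 in spring bees, beyond counting error. Against its neighbour AGLU2, Hbg3 had 106 reads per read in the winter (98.6 to 115), 17.5 in the spring (15.9 to 19.3) and 142 in the retired library (133 to 153).

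Glucose oxidase, the gland enzyme that turns glucose into gluconic acid and hydrogen peroxide, served as another honey enzyme to measure against. Hbg3 had 1.82 reads per glucose oxidase read in the winter library (1.79 to 1.84), 0.234 in the spring library (0.228 to 0.240) and 2.33 in the retired library (2.30 to 2.35). Alpha-amylase had 0.132 reads per glucose oxidase read in the retired library (0.129 to 0.135) and 0.131 in the winter library (0.127 to 0.135), values within each other's counting error. In the spring library this ratio was 0.00495 (0.00420 to 0.00578). Royal jelly proteins had 3.85 reads per Hbg3 read in winter bees, 92.8 in spring bees and 5.04 in retired bees.

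**Figure D3:**
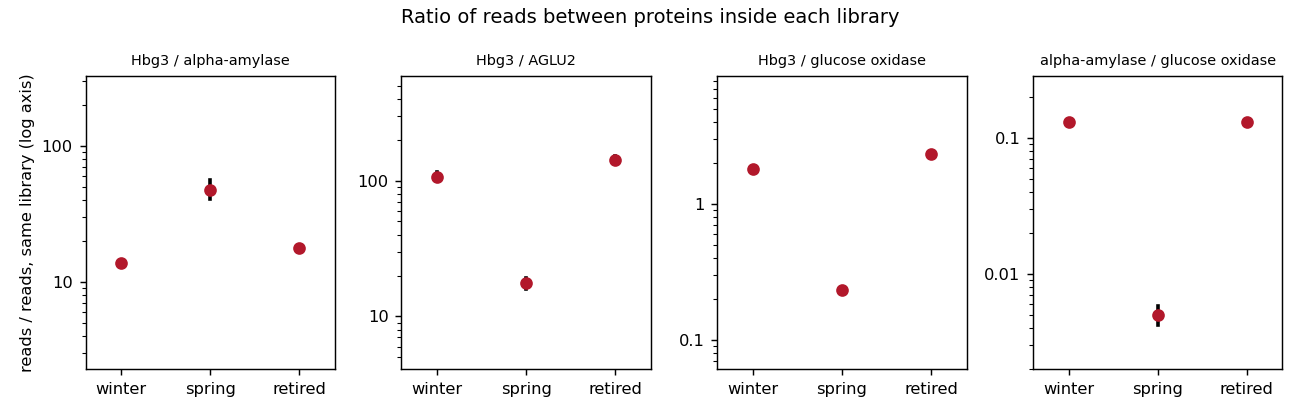
Reads of 1 protein divided by reads of another inside each library, on log axes that span the same number of decades, with exact 95% counting intervals as bars. The ratio of alpha-amylase to glucose oxidase is 0.131 in the winter and 0.132 in the retired library and 0.00495 in the spring library.

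Neutral alpha-glucosidase AB, from gene LOC551205, was highest in spring bees, where Hbg3 and alpha-amylase were lowest. TC14623 stood at 48.2 RPKM in winter bees, 77.6 RPKM in spring bees and 58.9 RPKM in retired bees. Its share was 1.61-fold higher in spring than in winter (1.46 to 1.78), 1.32-fold lower in retired than in spring (1.19 to 1.45) and 1.22-fold higher in retired than in winter (1.10 to 1.36). The beta subunit of the same enzyme, glucosidase 2 subunit beta (TC15149), stood at 65.9 RPKM in winter, 122 in spring and 109.6 in retired bees, and was 1.86-fold higher in spring than in winter (1.64 to 2.10). Its ratio of retired over spring was 0.896, with an interval that includes 1 (0.7998 to 1.003). Both subunits were thus higher in spring than in winter, each by less than 2-fold on the library totals, and the beta subunit passed 2-fold under both rescalings, at 2.22-fold with the median ratio set to 1. Its interval for retired over spring excluded 1 only with royal jelly reads left out, at 0.770 to 0.966.

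Lysosomal alpha-glucosidase, which the orthology entry ties to LOC409365, had its main sequence NP9546912 at 16.9 RPKM in winter, 13.9 in spring and 11.6 in retired bees. Its intervals included 1 in spring over winter (0.646 to 1.05) and in retired over spring (0.631 to 1.10). In retired over winter it was 1.45-fold lower (1.12 to 1.89) on the library totals. Under both rescalings the interval of this ratio included 1, at 0.649 to 1.09 with the median ratio set to 1. The other 2 lysosomal sequences had at most 1 read in a library.

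Per length, the order of the 8 better-read members changed between libraries. TC20807 and TC17549 came before all others in each library. Alpha-amylase TC12373 came next in the winter and retired libraries, but in the spring library it stood behind neutral alpha-glucosidase AB and AGLU2. The counting intervals of those last 2 overlapped in spring, at 72.7 to 82.7 RPKM and 61.5 to 74.5 RPKM, so their order is not fixed. In the retired library TC22116 (115 to 153 RPKM) and AGLU2 (122 to 141 RPKM) overlapped as well. Orthology entries alone name alpha-glucosidase for 4 more sequences outside the rule, of which TC12735 was the most abundant at 139 RPKM in winter, 107 in spring and 93.0 in retired bees.

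**Figure D4:**
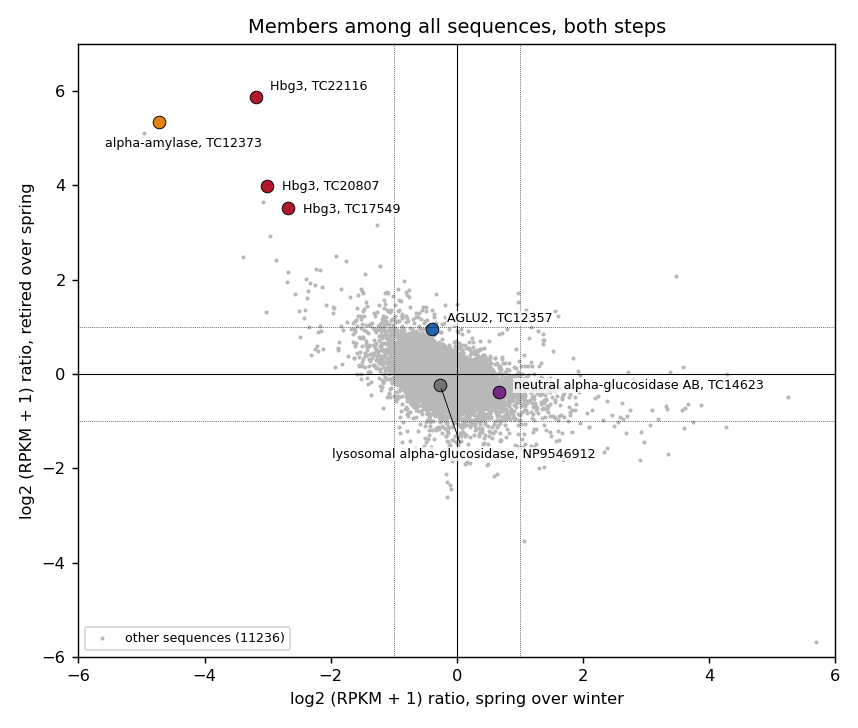
Each sequence that reached 10 RPKM in at least 1 library of each comparison. Points are placed by log2 (RPKM + 1) ratio in spring over winter and in retired over spring, with dotted lines at 2-fold. Coloured points are 7 members and grey points 11236 other sequences, of which 14 lie beyond the axes. Alpha-amylase at -4.72 and 5.35 and the Hbg3 sequences lie at the upper left, apart from most of the cloud.

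In all, 94 of 11243 sequences were at least 2-fold lower in spring than in winter and at least 2-fold higher in retired than in spring, which is 0.836%. Among them were 4 of the 7 members that could be placed in both comparisons. They are the Hbg3 sequences TC20807, TC17549 and TC22116, which share 1 protein match, and alpha-amylase TC12373. TC22116 passed the minimum in each comparison only through the library in which it was high, so its place among them adds no support. Both ratios use the spring library, so they are not independent of each other. Nearness to a member was measured over the 3 libraries as the distance between the same pairs of log2 ratios. It was taken among 7363 described sequences that are no members, with at least 10 RPKM in 1 library and 50 reads in all, so some of them are not in the plot of the 2 ratios. Closest to Hbg3 TC20807 was TC22440, an uncharacterized protein (LOC725114), with 156 RPKM in winter, 17.5 in spring and 230.3 in retired bees and a distance of 0.35. Then came a venom acid phosphatase-like sequence (TC14476) at 0.90, an esterase FE4-like sequence (TC14308) and the chemosensory protein 1 precursor (TC15471), both at 1.56, and LOC725002 (NP9548073) at 1.84. TC14476 rests on 4 spring reads and TC14308 on 5, and both stood under 1 RPKM in spring, where the pseudocount shrinks ratios. With ratios of read shares and no pseudocount, TC22440 was still the nearest at 0.31, TC14308 came next at 0.35, and TC14476 lay at 2.25.

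No described sequence came as near to alpha-amylase as TC22440 did to Hbg3. TC14476 was at a distance of 2.22 and TC22440 at 2.37, with Hbg3 TC20807 itself at 2.19. Without the pseudocount TC14476 was at 1.22, nearer to alpha-amylase than to Hbg3, while TC22440 was at 2.34 and Hbg3 TC20807 at 2.27. The next 3 with the pseudocount were chemosensory protein 1 at 3.46, TC14308 at 3.70 and the odorant binding protein 3 precursor (TC20616) at 3.79, the last on 32 winter, 3 spring and 18 retired reads. Without it, TC18687, a 15-hydroxyprostaglandin dehydrogenase-like sequence on 14 winter, 1 spring and 75 retired reads, came after TC14476 at 1.48, TC14308 was at 2.403 and TC20616 at 3.19, and chemosensory protein 1 at 3.53 was 7 in the order. AGLU2 stood at 4.01 from Hbg3 and at 6.18 from alpha-amylase.

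Genes of related pathways were taken by words of their protein match. Beside the counts below, the median log2 ratio of all sequences was -0.26 in spring over winter and -0.02 in retired over spring. Calls over the whole table made up 2.14% (higher) and 4.76% (lower) of 12038 sequences for the former comparison. For the latter they made up 1.81% (higher) and 1.96% (lower) of 11413. In a short list, a count of 0 or 1 cannot be told apart from such shares. Rescaling to a median ratio of 1 raised log2 ratios of read shares in spring over winter by 0.26, and those of (RPKM + 1) by less where a level was low. The members' medians were -2.67 and 3.68 over the 7 and 8 sequences that reached the minimum, which the selection of high libraries shapes.

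Glycogen, trehalose and glucose handling, the intracellular side of sugar use, held 24 sequences. Of 17 at the minimum in spring over winter, 1 was higher, 1 was lower and the median was -0.26. In retired over spring 0 of 15 passed 2-fold in either direction and the median was 0.01. The higher one was a glycogen phosphorylase sequence (TC19393), which releases glucose from glycogen, at 64.2 RPKM in spring against 23.9 RPKM in winter. Another sequence of the same protein, TC23807, stood at 12.2 RPKM in spring against 19.4 RPKM in winter, on 34 and 63 reads. Sequences of 1 protein thus differed in direction on the library totals. The ratio of TC23807 was 0.632 (0.403 to 0.973), and the upper end of this interval lies nearer to 1 than the shift between scalings. A hexokinase-2-like sequence (BI513336) was the lower one, at 6.23 RPKM in spring against 15.0 RPKM in winter on 11 and 31 reads, and did not reach 2-fold under either rescaling. The glycogen debranching enzyme (NP9548294), which also cuts alpha-linked glucose, differed by under 2-fold at 14.1 RPKM in spring against 19.2 RPKM in winter.

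Glucose oxidase and the glucose dehydrogenases, which oxidise glucose, held 26 sequences, of which 6 reached the minimum in spring over winter. Of these, 1 was higher and 1 was lower, with a median of -0.05, and in retired over spring 0 of 5 differed 2-fold, with a median of 0.17. The main glucose oxidase sequence TC12346 stood at 4819 RPKM in winter, 4674 in spring and 7500.2 in retired bees. A glucose dehydrogenase (TC14055) was 507 RPKM in spring against 12.3 RPKM in winter, opposite to Hbg3. Another one (TC14254) was 4.80 RPKM in spring against 16.2 RPKM in winter.

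N-glycan trimming and glycoprotein quality control, the setting of neutral alpha-glucosidase AB, had 3 of 13 sequences higher in spring over winter and 0 lower, with a median of 0.79. Under both rescalings 7 of the 13 were 2-fold higher in spring bees. In retired over spring 0 of 13 differed 2-fold and the median was -0.33. Calreticulin (TC22521), a chaperone that binds glycans which still carry glucose, stood at 392 RPKM in spring against 149.9 RPKM in winter, a share 2.62-fold higher (2.45 to 2.80). Both other higher sequences match subunit 1 of the oligosaccharyltransferase, which attaches the glycans, with TC16453 at 75.2 RPKM in spring against 30.9 RPKM in winter. UDP-glucose:glycoprotein glucosyltransferase (TC19324), which puts glucose back on misfolded proteins, was 1.76-fold higher in spring than in winter (1.53 to 2.03). Calnexin (TC12564), the membrane-bound relative of calreticulin, was at 63.4 RPKM in spring against 72.7 RPKM in winter, a difference smaller than the shift between scalings.

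Other glycosidases, most of them lysosomal, had 5 of 16 sequences higher in spring over winter and 0 lower, with a median of 0.15. In retired over spring 0 of 16 differed 2-fold, with a median of -0.25. Lysosomal alpha-mannosidase (TC13073), which removes mannose from glycans, stood at 235 RPKM in spring against 50.7 RPKM in winter. A glucosylceramidase-like sequence (TC18376), an enzyme that splits glucose from a membrane lipid, stood at 129 RPKM in spring against 11.9 RPKM in winter. The 5 are not 5 enzymes, since they include TC19526, which matches the same protein as TC18376, and DB753489, also a lysosomal alpha-mannosidase match. TC24354, among the 16, is also in the N-glycan list. Lysosomal alpha-glucosidase itself, at 13.9 RPKM in spring against 16.9 RPKM in winter, did not share these higher values.

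Royal jelly proteins, the main nurse secretion, had 20 of 31 sequences higher in spring over winter and 1 lower, with a median of 1.17. In retired over spring 4 of 33 were higher and 7 lower, with a median of -0.33. The 1 lower sequence in spring was Mrjp6 (TC12389), with 2026 RPKM in winter, 599.5 in spring and 3141 in retired bees, an order shared with Hbg3 and alpha-amylase. Its difference was smaller than theirs, at 5.24-fold higher in retired than in spring (5.04 to 5.45).

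**Figure D5:**
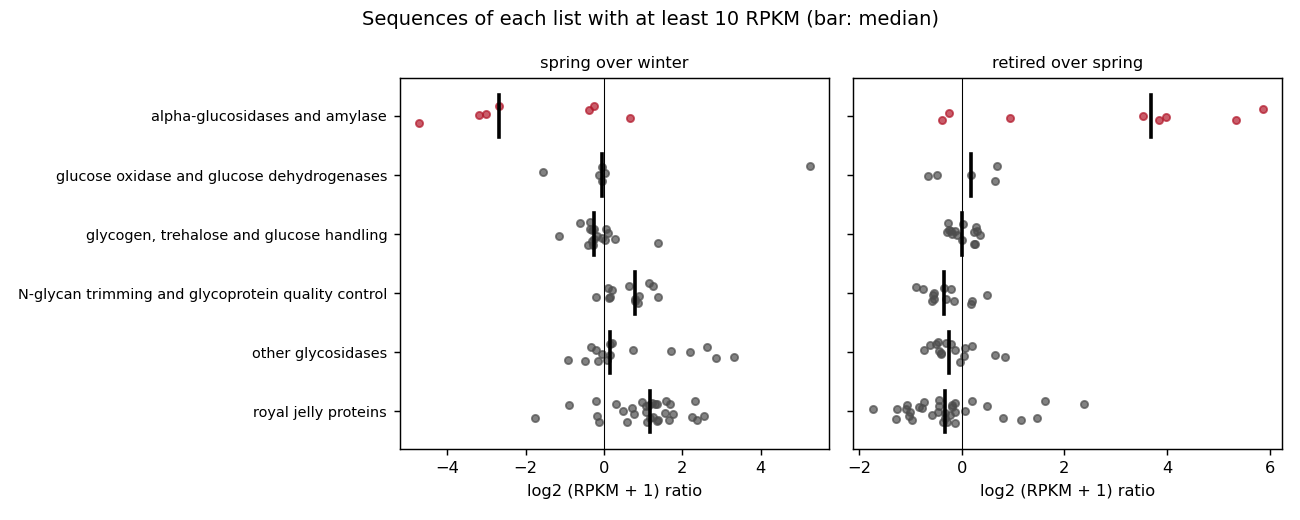
Log2 (RPKM + 1) ratios by list, for sequences that reached 10 RPKM in either library, in spring over winter and retired over spring, with a black bar at each median. Red points are the alpha-glucosidases and alpha-amylase, which reach -4.72 in spring over winter and 5.87 in retired over spring, and grey points are sequences of the related lists. The 5.87 is TC22116, on 2 spring reads, which reached the minimum only in the retired library. Alpha-amylase TC12373 is at 5.35 in retired over spring.

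Markers of other tissues were compared between the libraries in the same way. Muscle markers (36 sequences) summed to 724 RPKM in winter bees, 579.8 in spring bees and 777 in retired bees. Midgut markers (19 sequences, led by an aminopeptidase N-like sequence, TC14129) summed to 2015, 1441 and 1635 RPKM in the same order, and photoreceptor markers (20 sequences) to 335, 287 and 435 RPKM. Most of the midgut sum is 1 protein, since TC14129 stood at 1232, 898 and 1039 RPKM. BI502976, a match to the same protein, stood at 617, 424 and 467 RPKM. Fat body markers (9 sequences) summed to 87.4, 34.4 and 20.9 RPKM. Muscle and midgut sums were lowest in spring bees, as were Hbg3 and alpha-amylase, but by less than 2-fold. The photoreceptor sum was lowest in spring bees only on the library totals, since with the median ratio set to 1 it was 299.9 RPKM in spring against 293 RPKM in winter. No marker sequence of neurons was at 0 in any library, and at most 5 of the midgut, 2 of the muscle, 2 of the photoreceptor and 1 of the fat body sequences were at 0 in 1 library. Their part in the enzyme differences was not tested.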

How the data were processed

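Each library came as 1 deposited table with, per the file headers, sequence length, a count of uniquely mapped reads, coverage as a fraction of the length, RPKM, a protein match and an orthology entry. Per the labels' protocols, oligo-dT enriched mRNA was fragmented, amplified by PCR and sequenced on an Illumina HiSeq. No source used here gives the aligner, counter or sequence set. RPKM recomputed from the deposited counts equalled the deposited RPKM. Reads that fit several near-identical sequences are not counted, so levels of the Hbg3 sequences are uncertain.

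Sequence identifiers joined the tables, with unlisted values taken as 0. Library totals ran between 3.18 M and 3.85 M reads. Calls used a minimum of 10 RPKM, a pseudocount of 1 RPKM, which understates ratios of low sequences, and a 2-fold threshold. Reads were summed per protein match. Ratios have exact conditional binomial, shares exact Clopper-Pearson and levels exact Poisson intervals at 95%. A spring count of 0 was set to a floor of 3 reads for a ratio. Symbols came from the gene table of assembly Amel_HAv3.1, which named 5 of 9 protein entries and served for names and neighbours only.

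Members and lists were chosen with earlier results of these data known. The text names all members, up to 4 sequences per list with the largest ratio, and the 5 nearest described sequences with at least 50 reads. The beta subunit, calnexin, UDP-glucose:glycoprotein glucosyltransferase, TC12735 and the ratios within libraries were chosen after their values were seen. Calls and intervals were run on simulated counts with planted differences in well-read sequences. Those counts varied by counting error alone, which the intervals assume. The check therefore does not cover PCR copies, variation between pools or sequences on few reads. Tools were matplotlib 3.10.9, scipy 1.17.1, numpy 2.4.6, pandas 2.3.3 and Python 3.11.15. Alternatives were other pseudocounts, minimums, thresholds and scalings.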

Additional observations from a re-analysis of the deposited data

How the results depend on the processing

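Of 114 alternative values, 68 stayed within their criterion and 46 moved. Sign changed for 2 values whose intervals include 1, both in retired over spring without royal jelly reads, where the log2 ratios of maltase 1 and of the Apis florea lysosomal match became -0.0048 against 0.049. Members different in retired over winter numbered 1 at a minimum of 50 RPKM, 4 once the median ratio was set to 1 and 4 with royal jelly reads left out of the totals. The counts for spring over winter and retired over spring stayed within 1.5 times under every alternative run. Without a minimum, 6 were lower in spring over winter, and 6 were higher and 1 was lower in retired over spring. The lower one was Hbg2, on 20 spring and 4 retired reads.

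Rescaling to a median ratio of 1 gave log2 ratios in spring over winter of -2.74 for Hbg3, -4.51 for alpha-amylase, -0.13 for AGLU2 and 0.95 for neutral alpha-glucosidase AB, and in retired over winter of 1.28, 0.93, 0.86 and 0.58 in the same order. Without royal jelly reads these were -2.76, -4.54, -0.15 and 0.92 in spring over winter and 1.17, 0.82, 0.75 and 0.47 in retired over winter, and Hbg3 was at 3.93 in retired over spring. Both settings change only the library totals, so each shifts all ratios of read shares in a comparison alike. Intervals of AGLU2 in spring over winter and of lysosomal alpha-glucosidase in retired over winter excluded 1 on the library totals and included it under both.

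As shares of TPM, in winter, spring and retired bees, secreted-type alpha-glucosidases took 0.895%, 0.121% and 1.83%, alpha-amylase 0.0749%, 0.00274% and 0.122%, the reticulum form 0.00546%, 0.00878% and 0.00694%, and the lysosomal form 0.00191%, 0.00164% and 0.00150%. As shares of reads without royal jelly proteins, secreted-type alpha-glucosidases took 1.97%, 0.306% and 4.42% and alpha-amylase 0.141%, 0.00609% and 0.2497%. The reticulum form then took 0.0364% in spring and 0.0266% in retired bees, and the lysosomal form 0.00463% and 0.00377%.

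Distances without a pseudocount, chosen after seeing the data, moved by over 1.5 times for TC14476 and TC14308, each to both enzymes. Summing both amylase entries, an alternative chosen after seeing the data, gave log2 ratios of -4.77 for spring over winter, 5.41 for retired over spring and 0.64 for retired over winter. No paired analysis was possible because each group has 1 library, and no library could be left out for the same reason. Depth limits Hbg2, maltase 1, TC22116, DB772014 and the minor lysosomal sequences, which rest on few reads in at least 1 library.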

Other observations

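Sequences without any protein match were placed by the same distance, with the pseudocount, which matters where a library holds very few reads. BI514159 stood at 60.6 RPKM in winter, 0.984 in spring and 67.2 in retired bees, at a distance of 0.34 from alpha-amylase, on 72, 1 and 66 reads. TC20409 stood at 125 RPKM in winter, 15.1 in spring and 121 in retired bees, at a distance of 1.06 from Hbg3 TC20807. What either encodes was not tested.

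Of the other 3 sequences named alpha-glucosidase by their orthology entry alone, TC12623, whose protein match is an amino acid transport protein, stood at 38.1 RPKM in winter, 25.0 in spring and 28.1 in retired bees. NP9544418 stood at 21.6 RPKM in winter, 20.1 in spring and 20.1 in retired bees. TC14986, matched to a golgin-like protein, stood at 15.6, 14.6 and 11.0 RPKM in the same order. None of these 3 was 2-fold lower in spring than in winter.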
